A study of Homo sapiens with 4 samples.

Results

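Lactylation of lysine 5 of histone H4 (H4K5la) was mapped in SH-SY5Y, a human neuroblastoma cell line, by sequencing of immunoprecipitated chromatin. The places described here are those where a peak of the wild-type (WT) cells overlapped, by at least 1 bp, a peak of the cells with DNAJC12 knocked out (DNAJC12KO). Of 1937 WT peaks on chromosomes 1 to 22, X and Y, 172 did so (8.88%, exact binomial 95% interval 7.65 to 10.2%). Of 2743 DNAJC12KO peaks, 173 did so (6.31%, interval 5.43 to 7.28%). They formed 176 overlapping pairs, because 4 WT peaks met 2 DNAJC12KO peaks each and 3 DNAJC12KO peaks met 2 WT peaks each. The members were chosen by the measured peak positions of both lists, so these counts describe the choice and are no test. Each genotype had 1 immunoprecipitated and 1 input library, 4 in all, with no further treatment named for either group, and whether the DNAJC12KO cells are a single clone is not given in the sources used here. With 1 library per group, no difference has a replicate check, and all intervals cover counting error only. The DNAJC12KO list used here has no peak on chromosomes 13 and Y, so the 14 WT peaks there could not overlap one.

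Histone lactylation is the transfer of a lactyl group, derived from lactate, to lysines of histone tails, and it ties the metabolic state of a cell to its chromatin. It is known mainly from promoters and gene bodies of active genes. DNAJC12 is a co-chaperone of the hydroxylases that make catecholamines and serotonin. In the peak lists, a broad peak is a stretch of chromosome with more immunoprecipitated fragments than the background, and its fold is the linear ratio of both. Fold and -log10 q (the caller's significance after correction for many positions) are the authors' values for each peak. They are used to describe and rank peaks within 1 list.

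Both peaks of a pair reached the promoter window of 4 transcripts. They are shown because they are the starts, among those in the promoter table used, that are marked in both lists. That table lacks some protein-coding genes with a pair, so further starts may be marked in both. A window runs from 250 bases before to 50 bases after a RefSeq start (GRCh38.p14) and is written 5′ to 3′ on the strand of the gene, with the bases covered by both peaks in capitals.
MYO1G, chr7:44978966-44979265, minus strand: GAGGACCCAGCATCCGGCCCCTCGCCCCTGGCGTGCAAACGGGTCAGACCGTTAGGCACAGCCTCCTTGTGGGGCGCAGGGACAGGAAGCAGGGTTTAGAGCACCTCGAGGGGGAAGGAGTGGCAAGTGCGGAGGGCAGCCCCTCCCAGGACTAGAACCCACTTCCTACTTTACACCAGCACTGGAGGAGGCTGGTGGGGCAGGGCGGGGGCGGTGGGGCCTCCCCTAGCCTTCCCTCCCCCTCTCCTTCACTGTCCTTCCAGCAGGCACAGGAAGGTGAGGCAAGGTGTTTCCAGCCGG
PRKAR1B-AS2, chr7:561708-562007, plus strand: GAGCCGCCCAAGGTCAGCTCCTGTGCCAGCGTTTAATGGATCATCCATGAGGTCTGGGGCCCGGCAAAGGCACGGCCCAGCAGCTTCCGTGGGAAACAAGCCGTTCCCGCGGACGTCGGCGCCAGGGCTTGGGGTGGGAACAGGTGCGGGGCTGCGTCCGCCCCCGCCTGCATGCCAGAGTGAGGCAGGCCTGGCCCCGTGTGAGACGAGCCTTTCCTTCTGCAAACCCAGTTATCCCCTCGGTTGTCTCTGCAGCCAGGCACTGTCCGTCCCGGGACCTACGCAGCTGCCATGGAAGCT
ACTA1, chr1:229434045-229434344, minus strand: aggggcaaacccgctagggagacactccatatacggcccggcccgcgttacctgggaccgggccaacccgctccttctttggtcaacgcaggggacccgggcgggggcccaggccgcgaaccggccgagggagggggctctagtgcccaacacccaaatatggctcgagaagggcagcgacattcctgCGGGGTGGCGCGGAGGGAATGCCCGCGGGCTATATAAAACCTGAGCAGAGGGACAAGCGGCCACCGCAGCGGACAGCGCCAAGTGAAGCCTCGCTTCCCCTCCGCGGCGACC
LOC105375126, chr7:2199468-2199767, plus strand: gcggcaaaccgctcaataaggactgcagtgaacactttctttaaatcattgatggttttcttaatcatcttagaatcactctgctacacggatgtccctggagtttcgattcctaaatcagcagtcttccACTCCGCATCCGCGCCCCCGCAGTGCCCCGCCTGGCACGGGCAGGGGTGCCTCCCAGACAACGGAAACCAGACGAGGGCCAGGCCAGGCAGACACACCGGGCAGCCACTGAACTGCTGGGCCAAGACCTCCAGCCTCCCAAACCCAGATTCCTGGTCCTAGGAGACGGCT
All 300 bases were shared at MYO1G and PRKAR1B-AS2, 112 bases at ACTA1 and 170 at LOC105375126, and the start itself lay in both peaks at each. At ACTA1 the shared part began 62 bases before the start. It held the only TATAAA among these windows, which begins 30 bases before the start. Searched on both strands, TATAAA occurred in 11.5% of the 35116 promoter windows of the table. GGGCGG, or its reverse complement CCGCCC, occurred 2 times each at MYO1G and PRKAR1B-AS2, once at ACTA1 in the part that the WT peak did not reach, and 0 times at LOC105375126. At least 1 copy stood in 44.95% of all windows. The GC content was 66.0% at MYO1G and PRKAR1B-AS2, 68.0% at ACTA1 and 57.0% at LOC105375126, against a median of 58.7% and quartiles of 47.0 and 68.0%.

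MYO1G encodes a class I myosin of blood cells. The WT peak at its start had a fold of 4.02 and the DNAJC12KO peak 3.30. At ACTA1, the skeletal muscle actin gene, the WT peak had a fold of 4.02 and its DNAJC12KO partner 4.11. PRKAR1B-AS2 is a non-coding transcript within PRKAR1B, the gene of a regulatory subunit of protein kinase A, with folds of 3.58 and 3.38. LOC105375126 is a non-coding transcript within MAD1L1, a spindle checkpoint gene, with folds of 3.41 and 3.42. Such places were few: of the 169 overlapping WT peaks on chromosomes with promoter windows in the table, 6 touched a window (3.55%, interval 1.31 to 7.57%), beside 25 of 1692 other WT peaks (1.48%, interval 0.958 to 2.17%). Of the DNAJC12KO peaks, 7 of 170 overlapping ones did so (4.12%, interval 1.67 to 8.30%), beside 50 of 2483 others (2.01%, interval 1.498 to 2.65%). The intervals overlap in each list.

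Most pairs overlapped in part. The overlap was 9 bp at its shortest, 309 bp at the median and 1871 bp at its longest, and 62.6 kb in all, which is 6.29% of the bases in WT peaks and 4.41% of those in DNAJC12KO peaks. At the median it took up 78.9% of the narrower peak of a pair. One peak lay wholly inside the other in 55 pairs, with the WT peak inside in 28 and the DNAJC12KO peak inside in 27. In the remaining 121 pairs the WT peak began at the lower coordinate in 57 and the DNAJC12KO peak in 64. The WT peak was the wider in 88 pairs and the DNAJC12KO peak in 88. Neither genotype thus had the wider peak, or the peak at lower coordinates, in many more pairs than the other. An overlap of at least 50% of both peaks was reached by 67 pairs (38.1%), and the centres of a pair lay 261.5 bp apart at the median.

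**Figure D1:**
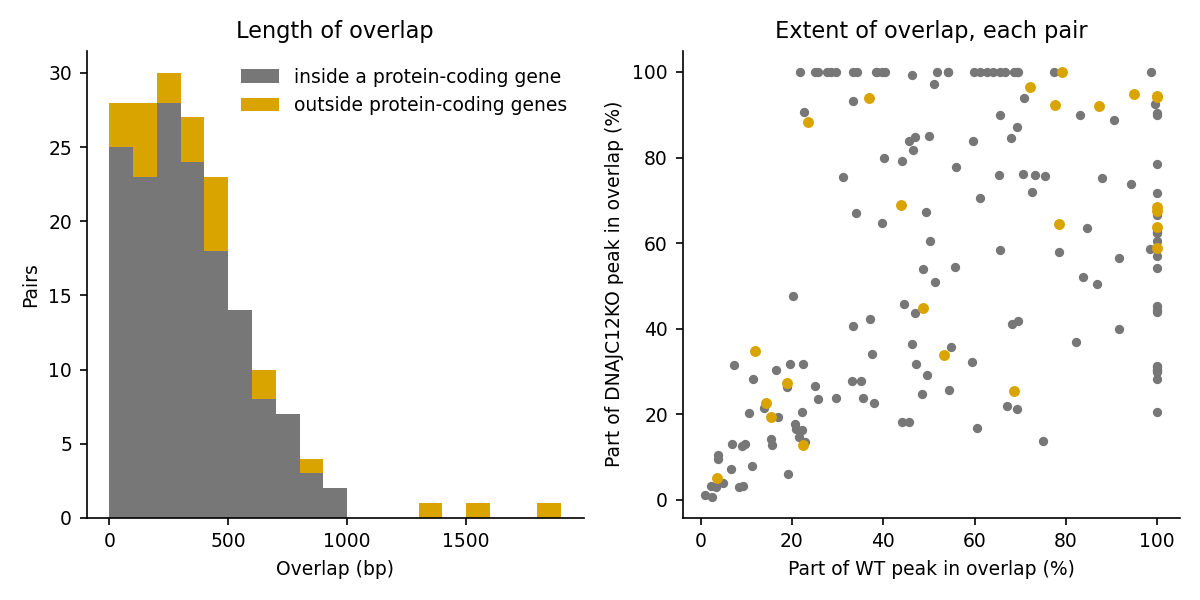
Length of overlap of the 176 pairs in bp (left, stacked bars of pairs) and the part of the WT peak and of the DNAJC12KO peak that lies in the overlap, in percent (right, 1 point per pair). Yellow marks the 24 pairs in which no protein-coding gene record touches both peaks; they include the 3 overlaps above 1000 bp.

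The 3 longest overlaps lay outside genes. The overlap exceeded 1000 bp at 3 places: chromosome 15 at 20340294 to 20342164 (1871 bp), chromosome 1 at 144103150 to 144104740 (1591 bp) and chromosome 16 at 33337625 to 33339017 (1393 bp). All 3 are outside annotated genes. No annotation of centromeres or repeats was used here. On chromosome 15 the WT fold was 3.84 and the DNAJC12KO fold 3.92, on chromosome 16 it was 4.25 and 4.48, and on chromosome 1 it was 3.66 and 3.99. At least 90% of both peaks overlapped at these 3 places and at 3 genes: PVALEF (98.7%), HGS (92.6%), whose product sorts ubiquitinated receptors in endosomes, and LMNB2 (90.3%), a nuclear lamin gene. PVALEF had a fold of 3.42 in WT and 3.56 in DNAJC12KO, HGS 3.61 and 3.71, and LMNB2 4.01 and 4.03. Other places outside genes that ranked high were chromosome 2 at 91518061 to 91518712 (fold 3.75 WT, 4.95 DNAJC12KO) and chromosome 5 at 49599549 to 49600847. There 1 WT peak (fold 2.82) met 2 DNAJC12KO peaks (2.28 and 2.77). Chromosome 1 at 144101618 to 144101730 (3.81 and 3.68) and chromosome 2 at 97267479 to 97268118, 2.96 kb from ANKRD36 (3.91 and 4.04) ranked next. The background beneath a peak, inferred as described below, had list medians of 1.64 (WT) and 1.75 fragments (DNAJC12KO). It was 8.41 and 6.20 at the 1591 bp overlap on chromosome 1. On chromosome 5 it was 15.3 in WT and 14.3 and 15.3 in DNAJC12KO. These were the only 3 pairs with at least 5 fragments in both lists. On chromosome 15 it was 3.80 and 2.84, and on chromosome 16 it was 3.04 and 2.29. The longest overlaps inside genes were 912 bp in INTS1, 902 bp in HGS and 896 bp in DNAAF5, a gene of the assembly of cilia (3.97 and 3.83). Of the 24 pairs without a shared protein-coding gene, 12 overlapped by at least 50% of both peaks (interval 29.1 to 70.9%), and of the 152 pairs in such a gene 55 did (36.2%, interval 28.6 to 44.4%).

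At the other extreme, the choice of members turned on a few bases. The shortest overlaps were 9 bp in INTS1 and 9 bp in FBXL18, 14 bp in MAD1L1, 16 bp in CEP131 and 22 bp in NDOR1. Just outside the rule, the peaks of both lists were separated by 3 bases in MAD1L1, 4 bases in BAHCC1, 9 bases in FAM20C, and 12 bases in MGAT5B and at a place on chromosome X. Over the 5 shortest overlaps the folds were 3.501 to 4.17 (WT) and 3.17 to 4.08 (DNAJC12KO), and over the 5 closest neighbours 3.35 to 3.99 and 3.28 to 4.63. Of the 1765 other WT peaks, 83 (4.70%) had a DNAJC12KO peak within 0.5 kb and 606 (34.3%) within 10 kb. Of the 2570 other DNAJC12KO peaks, 84 (3.27%) had a WT peak within 0.5 kb and 643 (25.02%) within 10 kb.

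Overlapping peaks were wider than the rest of their list, and in the DNAJC12KO list slightly lower in fold. Width is part of what makes an overlap likely, so these values only describe the members. The overlapping WT peaks measured 565 bp at the median (interval 529 to 634), beside 445 bp for other WT peaks, and the overlapping DNAJC12KO peaks 561 bp (interval 515 to 610), beside 452 bp. A width of at least 1000 bp was found in 15.7% of overlapping and 3.68% of other WT peaks, and in 14.5% of overlapping and 3.77% of other DNAJC12KO peaks. The median fold was 3.76 (interval 3.70 to 3.84) for overlapping and 3.82 for other WT peaks. It was 3.601 (interval 3.56 to 3.64) for overlapping and 3.69 for other DNAJC12KO peaks. The difference of medians was -0.07 (interval -0.13 to 0.02) in the WT list, which spans 0, and -0.09 (interval -0.14 to -0.06) in the DNAJC12KO list. These intervals take in the error of the overlapping median only. A fold of at least 4 was carried by 45 of 172 overlapping WT peaks (26.2%, interval 19.8 to 33.4%), near the 28.3% of the whole list. It was carried by 27 of 173 overlapping DNAJC12KO peaks (15.6%, interval 10.5 to 21.9%), near the 17.3% of the whole list. Of the overlapping WT peaks, 24 (13.95%, interval 9.15 to 20.05%) had a -log10 q of 2 or more, against 10.4% of the whole list. Of the overlapping DNAJC12KO peaks, 27 (15.6%, interval 10.5 to 21.9%) had one, against 9.99%. The strongest peaks by fold were thus not more often among the overlapping ones. By -log10 q the share was higher among overlapping than among other peaks in both lists, though the intervals overlap.

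**Figure D2:**
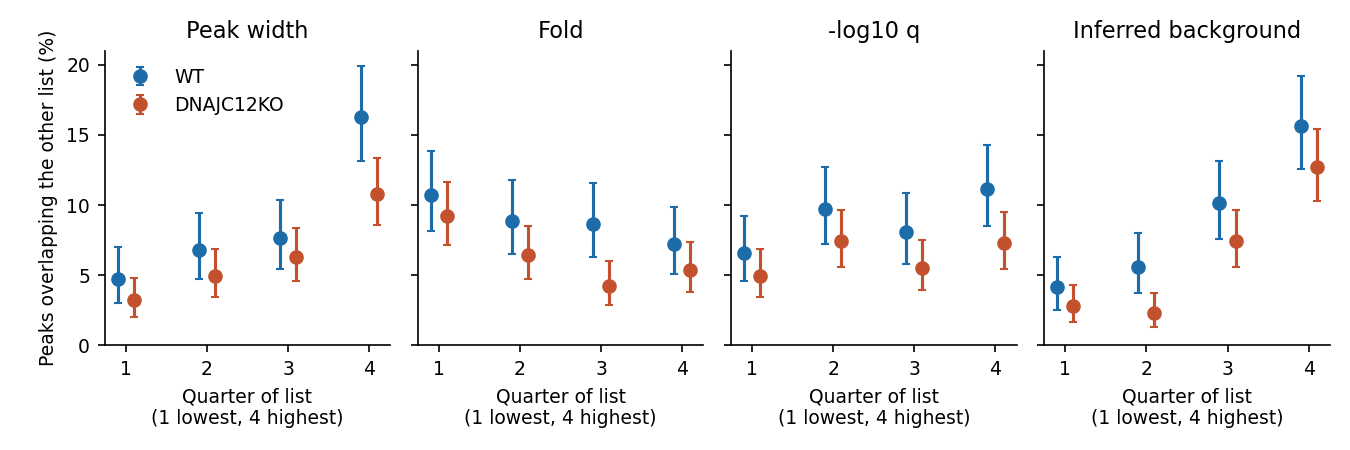
Percent of peaks that overlap the other list (vertical axis) in 4 equal-sized classes of each list by peak width, fold, -log10 q and inferred background (horizontal axis, 1 lowest to 4 highest; points with exact binomial 95% intervals). In the WT list the share goes from 4.75% in the narrowest to 16.3% in the widest class, and from 4.13% to 15.7% by inferred background.

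The share of overlapping peaks was highest among wide peaks and among peaks with a high inferred background. Over 4 equal-sized classes from narrow to wide, it went in the WT list from 4.75% to 6.82%, 7.64% and 16.3%. The DNAJC12KO shares were 3.21%, 4.96%, 6.27% and 10.8%. By fold the order was the opposite in the WT list, from 10.7% in the lowest to 7.22% in the highest class, with overlapping intervals. The DNAJC12KO share was 9.20% (interval 7.14 to 11.6%) in the lowest and 5.39% (interval 3.82 to 7.36%) in the highest class. The background beneath each peak is not in the lists and was inferred from the fold and -log10 p, in fragments after the authors' scaling. It is thus tied to the fold: at an equal -log10 p, a lower fold gives a higher inferred background. The classes by fold and by background are therefore not separate results. By inferred background the share went from 4.13% (interval 2.54 to 6.31%) in the lowest to 15.7% (interval 12.5 to 19.2%) in the highest class of the WT list. Among DNAJC12KO peaks it went from 2.77% (interval 1.68 to 4.30%) to 12.7% (interval 10.3 to 15.4%). The median inferred background was 1.88 fragments for overlapping and 1.62 for other WT peaks, and 2.12 and 1.74 in the DNAJC12KO list. This difference stood in all 4 width classes of both lists, from 0.14 to 0.45 fragments. The fold did not keep its direction there: overlapping minus other WT peaks gave a difference of medians of -0.19 in the narrowest class and 0.0034 in the widest. For DNAJC12KO peaks it was negative in all 4 classes, from -0.26 to -0.04. The part of the background in making peaks coincide was not tested.

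Chromosomes 7 and 17 held more than 50% of the overlapping peaks. Chromosome 7 carried 56 of the overlapping WT peaks (32.6% of them) and chromosome 17 carried 39 (22.7%), 55.2% together (interval 47.5 to 62.8%), beside 29.9% of the other WT peaks (interval 27.8 to 32.1%). For DNAJC12KO peaks the share was 54.9% of overlapping and 28.1% of other peaks. On these chromosomes 15.2% of WT peaks (interval 12.5 to 18.3%) overlapped, and 5.86% on all others (interval 4.65 to 7.27%). For DNAJC12KO peaks it was 11.6% (interval 9.51 to 14.03%) and 4.05% (interval 3.21 to 5.03%). A place with more peaks of 1 list offers more partners to the other, and this was not separated from other causes here. The median inferred background of all peaks was 1.93 fragments on chromosomes 7 and 17 and 1.53 on the others in the WT list, and 2.16 and 1.66 in the DNAJC12KO list. SH-SY5Y is known to carry extra copies of chromosome 7 and of the long arm of chromosome 17. Chromosome 17 was taken whole here. Below 22 Mb, 3 of 25 WT peaks overlapped (12%, interval 2.55 to 31.2%). From 27 Mb, 36 of 263 did (13.7%, interval 9.77 to 18.4%). The median inferred backgrounds were 1.48 and 2.01 fragments. In the DNAJC12KO list the shares were 6.67% and 10.3%, and the background was again lower below 22 Mb. Chromosome 1 beyond 140 Mb, counted among the others, had 2.09 (WT) and 2.29 fragments (DNAJC12KO), with 16.2% and 11.9% overlapping. Copy number was not measured here, and its part in the result was not tested. Within both groups of chromosomes the overlapping peaks had the higher inferred background: 1.99 against 1.93 and 1.67 against 1.52 in the WT list, 2.26 against 2.15 and 1.87 against 1.65 in the DNAJC12KO list. This did not hold in every stretch. The order was reversed on chromosome 17 below 22 Mb in the WT list (1.37 against 1.49) and on chromosome 1 beyond 140 Mb in the DNAJC12KO list (2.18 against 2.31). In the first 3 Mb of chromosome 7 the WT values were 1.890 and 1.887. In the other stretches compared on chromosomes 1, 7 and 17 the overlapping peaks had the higher value. The lower median fold of overlapping WT peaks did not hold on chromosomes 7 and 17 taken alone, where the median was 3.72 for overlapping and 3.68 for other WT peaks. It was 3.53 for overlapping and 3.599 for other DNAJC12KO peaks there. On the other chromosomes the medians were 3.81 and 3.86 in the WT list and 3.64 and 3.72 in the DNAJC12KO list.

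**Figure D3:**
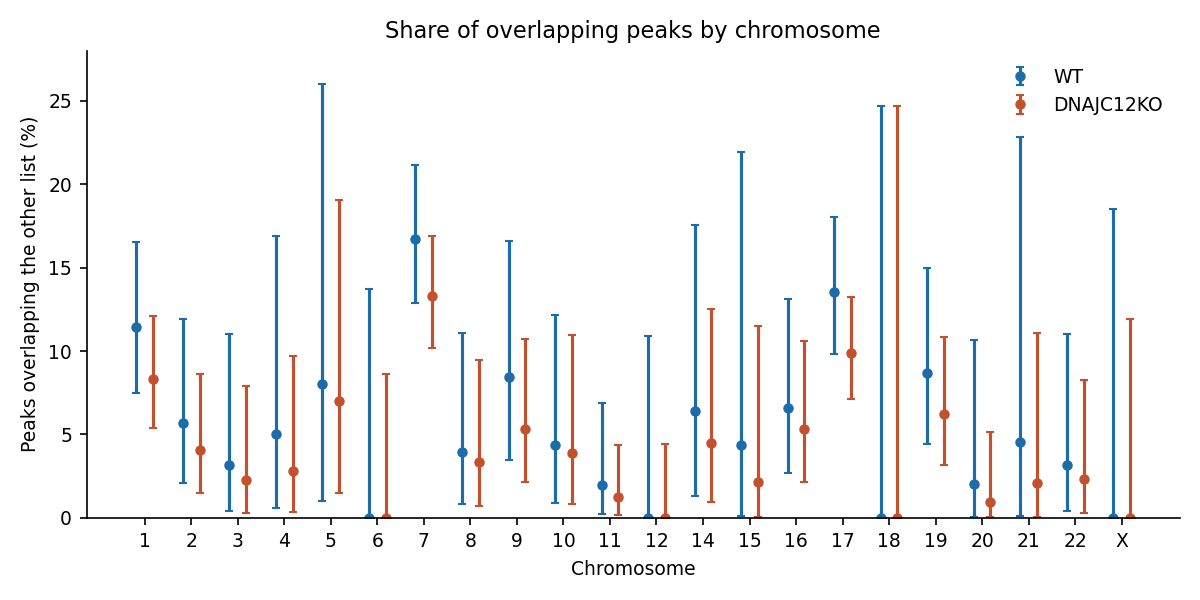
Percent of peaks on each chromosome that overlap the other list (points, with exact binomial 95% intervals; WT blue, DNAJC12KO orange). Chromosome 7 is the highest in both lists, with 16.7% (WT) and 13.3% (DNAJC12KO); chromosomes 13 and Y are left out because the DNAJC12KO list has no peak there.

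Within these chromosomes and chromosome 1, the share of overlapping peaks was higher in some stretches than in others. In the first 3 Mb of chromosome 7, 28 of 119 WT peaks (23.5%, interval 16.2 to 32.2%) and 28 of 122 DNAJC12KO peaks (22.95%, interval 15.8 to 31.4%) overlapped. On the remainder of chromosome 7 it was 28 of 216 (12.96%, interval 8.79 to 18.2%) and 28 of 300 (9.33%, interval 6.29 to 13.2%). The intervals of both parts overlap in the WT list and do not meet in the DNAJC12KO list. From 81 Mb to the end of chromosome 17, 20 of 98 WT peaks (20.4%) and 20 of 118 DNAJC12KO peaks (16.9%) overlapped. On chromosome 1, beyond 140 Mb, 18 of 111 WT peaks (16.2%, interval 9.90 to 24.4%) and 18 of 151 DNAJC12KO peaks (11.9%) overlapped, while below 120 Mb 6 of 99 (6.06%, interval 2.26 to 12.7%) and 6 of 138 (4.35%) did. The bounds on chromosome 1 were chosen after the values were seen. Those on chromosomes 7 and 17 were not planned beforehand either, so these shares describe the stretches and are no test. No overlapping peak was found on chromosomes 6, 12, 18 and X, where the lists hold 25, 32, 13 and 18 WT peaks. The most peaks without an overlap were the 81 DNAJC12KO peaks of chromosome 12, and 0 of 81 allows a share of up to 4.45% (exact upper bound). Of all pairs, 83 (47.2%) had another pair within 100 kb, with pairs that share a peak counted as neighbours. The same spacing was not computed for all peaks, so this share has no background here. Of the non-overlapping peaks, 74.8% in the WT and 60.5% in the DNAJC12KO list had a peak of the other list within 100 kb.

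Most overlapping peaks lay in or near protein-coding genes, and few in other kinds of gene alone. Gene ends, meant here as the 3 kb to either side of the start or end of a protein-coding record, held the centre of 42 overlapping WT peaks (24.4%, interval 18.2 to 31.5%), beside 25.4% of the others. A further 65.7% lay elsewhere inside such a gene, beside 60.5%. Of overlapping DNAJC12KO peaks, 24.9% (interval 18.6 to 31.98%) were at gene ends, beside 21.98% of the others, and 64.7% inside a gene, beside 58.1%. Outside annotated genes were 9.30% of overlapping and 10.3% of other WT peaks, and 9.83% (interval 5.83 to 15.3%) and 14.9% (interval 13.5 to 16.3%) in the DNAJC12KO list. Inside another kind of gene, such as a non-coding RNA or pseudogene, lay 1 overlapping WT peak (0.581%, interval 0.0147 to 3.20%), beside 3.91% of the others (interval 3.05 to 4.92%). The DNAJC12KO list had 1 (0.578%, interval 0.0146 to 3.18%), beside 5.02% (interval 4.21 to 5.94%), and these intervals do not meet. Both peaks of a pair fell in the same class in 173 of 176 pairs.

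Overlapping peaks lay towards the far end of genes, as did the other peaks. For genes whose strand the promoter table gives, the centre of the overlapping WT peaks stood at a median of 69.2% of the way from start to end (interval 52.1 to 76.4%, 116 peaks) and that of the others at 62.6% (interval 59.6 to 65.9%). For DNAJC12KO peaks it was 70.0% (interval 53.6 to 76.9%) and 67.05%. The final 20% of the gene held 33.6% of the overlapping WT and 36.5% of the overlapping DNAJC12KO peaks, near the 29.8% and 34.5% of the others. The first 20% held 12.9% and 12.2%, near the 13.7% and 11.6% of the others. Both centres lay within 3 kb of the same gene end in 42 pairs, at 45 genes. By strand, 28 genes were met at the end of the record and 14 at the start, 3 short genes among them at both, and 6 genes had no strand in the table. This count was not made for the other peaks, so it has no background here. The median distance of overlapping peaks from the nearest known protein-coding start was 16.1 kb in the WT list (interval 12.7 to 19.7 kb) and 16.3 kb in the DNAJC12KO list (interval 13.3 to 20.9 kb), beside 17.5 kb (interval 15.9 to 19.5 kb) and 22.5 kb (interval 20.99 to 24.2 kb) for the others. The intervals overlap in the WT list and do not meet in the DNAJC12KO list.

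The best-ranked genes met at an end were ACTA1, at both ends of its short record, and CEP131, PLEKHM2, INTS1, ZNF282, NUDT1, SNX8, PTDSS2, TMEM121 and RNF187 at the end of the record. The pair at the end of PLEKHM2, a gene of lysosome positioning, also lay near the start of the mitochondrial carrier gene SLC25A34, with folds of 4.50 in WT and 4.12 in DNAJC12KO. The pair inside the sorting nexin gene SNX8, at its end, lay within 3 kb of the end of NUDT1, whose product clears oxidised nucleotides, and had folds of 4.10 and 3.62. At PTDSS2, a phosphatidylserine synthase gene, they were 4.09 and 4.24. TERT, the catalytic subunit of telomerase, had a pair near its start with folds of 4.43 and 3.84. F2, the prothrombin gene, also had one near its start, with 4.72 and 3.57. The remaining genes of the 20 best-ranked were MYO1G and LCN15 at the start, LOC728743 and PIP5K1C at the end, and ARHGAP33, FASN and GFUS, for which the table gives no strand.

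In all, 118 of 20037 protein-coding genes (0.589%) contained both peaks of a pair, at least in part. Peaks of both lists, overlapping or not, were found in 506 genes (2.53%), so that 23.3% of the genes marked in both genotypes were marked at an overlapping place. The share depended on how many peaks a gene held. It was 15.2% (57 of 376 genes, interval 11.7 to 19.2%) where the list with fewer peaks had 1, 42.9% (45 of 105, interval 33.2 to 52.9%) where it had 2 to 3, and 64.0% (16 of 25, interval 42.5 to 82.0%) where it had 4 or more. Genes with a pair were shorter than the genes with peaks of both lists but no pair, with medians of 32.7 and 50.2 kb, and held 2 peaks of each list at the median, against 1.

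Several pairs stood in each of 22 genes, which together held 63 of the 176 pairs. INTS1 (chromosome 7, 1470277 to 1504389), a subunit of the Integrator complex that cleaves nascent small nuclear RNAs, held 6 pairs. The WT folds there, in order of position, were 3.72, 3.92, 4.08, 3.501, 3.67 and 3.78, and the DNAJC12KO folds 3.99, 4.15, 4.00, 3.17, 4.06 and 3.37. In all, 2841 bp overlapped. FASN (chromosome 17, 82078338 to 82098236), fatty acid synthase, held 4 pairs among 6 peaks of each list within 19.9 kb. Its WT folds were 4.07, 3.59, 3.56 and 3.86, and its DNAJC12KO folds 3.52, 3.38, 3.425 and 3.425, the last 2 from 1 peak that met 2 WT peaks. CEP131 (chromosome 17, 81189596 to 81222965), a gene of centriolar satellites, held 3 pairs. Its widest WT peak, of 2666 bp, enclosed 2 DNAJC12KO peaks, of 669 and 890 bp.

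**Figure D4:**
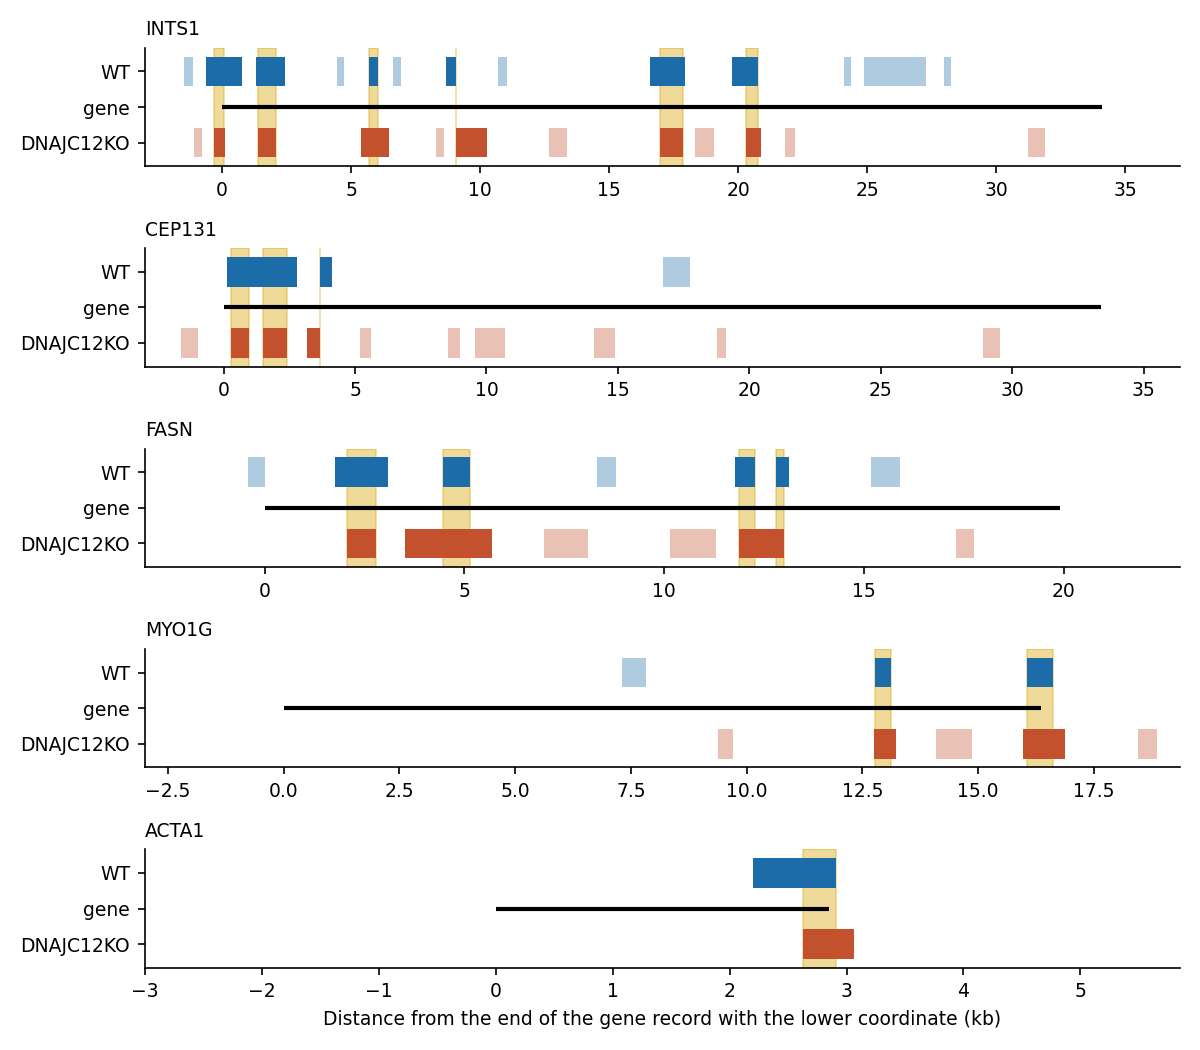
Peaks at 5 genes with overlapping pairs, drawn as distance in kb from the end of the gene record with the lower coordinate (black line, the gene; blue, WT peaks; orange, DNAJC12KO peaks; pale bars, peaks that do not overlap; yellow, the overlaps). INTS1 shows 6 overlaps and FASN 4; at MYO1G and ACTA1 an overlap covers the end of the record with the higher coordinate, which is their start.

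Among genes of neurons, RBFOX3, the splicing factor known as the antigen NeuN, held 4 pairs. Its WT folds were 3.51 to 3.70 and its DNAJC12KO folds 3.21 to 4.01. PTPRN2, a phosphatase-like protein of secretory granules, held 4 pairs with folds of 3.80 to 4.09 and 3.36 to 3.55. These are long genes with many peaks: RBFOX3 spans 576 kb with 13 WT and 31 DNAJC12KO peaks, and PTPRN2 spans 1049 kb with 26 and 37. PRKAR1B held 2 pairs, 1 of them at the start of PRKAR1B-AS2. The semaphorin receptor gene PLXNB2 held 2 pairs, whose folds were 3.96 and 3.82 in WT and 4.34 and 3.61 in DNAJC12KO.

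Genes of the centrosome and of cell division were MAD1L1, with 4 pairs (folds 3.41 to 3.64 and 3.42 to 3.92), and LRRC45, with 2. Genes of signalling and membrane traffic were CSNK1D, a casein kinase gene, SH2B2, an adaptor of receptor kinases, RADIL, an effector of the GTPase Rap1, RHBDF2, a rhomboid-like protein gene, and SNX8, with 2 pairs each. FAM20C, the kinase of secreted proteins, MYO1G and BRF1, a subunit of an initiation factor of RNA polymerase III, also had 2 each. CHLSN, the cholesin gene, held 4 pairs. TTC34 and NACAD held 2 each, those of NACAD with the same DNAJC12KO peak (fold 4.803) and WT folds of 4.09 and 3.84. ZNF282, a zinc finger gene, held 2 pairs with the same WT peak, whose fold of 5.14 was the highest among overlapping WT peaks. The DNAJC12KO folds there were 3.73 and 4.10. The groups in this and the preceding paragraph were formed after the genes were known and were not tested.

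A fold of at least 4 in both lists was found in 11 pairs. They lay in ZNF282, NACAD, CEP131, ACTA1, PTDSS2 and PLEKHM2, named above, in TEPSIN, an accessory gene of an adaptor complex of the Golgi (4.14 in WT and 4.16 in DNAJC12KO), FBXL18, an F-box gene (4.17 and 4.08), TNRC18 (4.13 and 4.01) and LMNB2, and at the place on chromosome 16. In 36 pairs only the WT peak reached a fold of 4, in 17 only the DNAJC12KO peak and in 112 neither. In the whole lists 28.3% of WT and 17.3% of DNAJC12KO peaks reached it, so the larger WT count is not particular to the pairs. Across the 176 pairs, the Spearman correlation was 0.32 between the folds of both peaks, 0.24 between their -log10 q, 0.10 between their widths and 0.61 between their inferred backgrounds. These values describe the pairs without a p, since some pairs share a peak and all share the 2 libraries and the same stretch of genome. The 7 pairs that reached a -log10 q of 2 in both lists were the places on chromosomes 1, 5, 15 and 16 described above and 1 each in NACAD, CHLSN and INTS1.

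**Figure D5:**
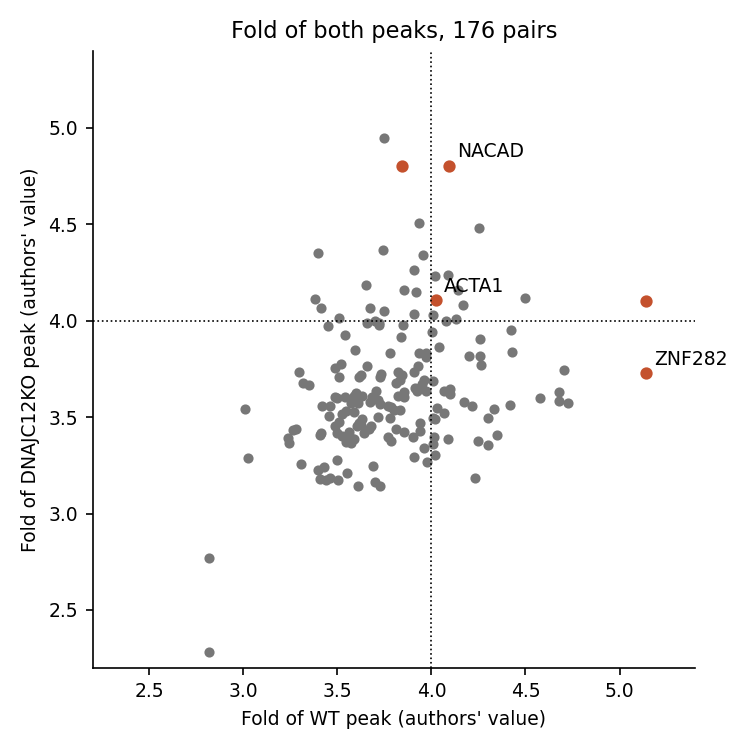
Fold of the WT peak (horizontal axis) and of the DNAJC12KO peak (vertical axis), both the authors' linear ratios, for the 176 pairs (1 point per pair; dotted lines at a fold of 4). ZNF282 lies farthest to the right, with 1 WT peak in 2 pairs, and 112 points lie below 4 on both axes.

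The gene lists were read for members with an overlapping pair, beside the 0.589% of all protein-coding genes. Of 74 axon guidance ligands and receptors, 3 had one (4.05%): PLXNB2, PLXNA1 (folds 3.95 in WT and 3.67 in DNAJC12KO) and SEMA6C (3.53 and 3.401). Of 139 voltage-gated ion channel genes, 3 did (2.16%): KCNAB2, a potassium channel beta subunit (4.20 and 3.82), the muscle sodium channel SCN4A (4.01 and 3.498) and the sodium-activated potassium channel KCNT1 (3.97 and 3.63). Of 141 histone modifier and chromatin remodeller genes, 3 did (2.13%): EHMT1, a methyltransferase of H3 lysine 9 (3.63 and 3.72), SMARCD2, a subunit of SWI/SNF remodellers (4.25 and 3.37), and DOT1L, the methyltransferase of H3 lysine 79 (3.602 and 3.46). The 3 axon guidance genes were among 8 of that list with peaks of both genotypes, the 3 channel genes among 7 and the 3 chromatin genes among 12.

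Of 26 glycolysis and lactate genes, PFKL alone had a pair (3.85%), in which 41 bp overlapped (3.52 and 3.77). Of 122 collagen, laminin and metalloproteinase genes, COL20A1 had one (4.68 and 3.58), of 81 myosin and kinesin genes MYO1G, and of 45 Integrator and Mediator genes INTS1. Of 362 solute carrier genes, 5 did (1.38%): SLC26A1 (3.91 and 4.26), SLC25A10 (3.91 and 3.29), SLC5A10 (3.75 and 4.05), SLC39A11 (3.59 and 3.85) and SLC45A3 (3.28 and 3.44). Of 509 ZNF genes, ZNF282 and ZNF316 (3.78 and 3.49) did (0.393%). No pair was found in 97 genes of FGF, PDGF, WNT, BMP and Notch signalling, 7 of which had peaks of both lists, or in 80 ribosomal protein genes and 68 heat shock and J protein genes. The lists are small and their members differ in length, and nothing particular to a list was tested.

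The knocked-out gene DNAJC12 (chromosome 10, 67796669 to 67838188) had no peak in either list, and the nearest pair lay 21.2 Mb away, in GPRIN2. None of the 20 genes of catecholamine and serotonin synthesis had a pair. Of 9 genes that define the adrenergic identity of neuroblastoma cells, HAND2 and GATA3 among them, 0 had a pair, DBH had 1 WT peak and TH 1 DNAJC12KO peak. The 7 mesenchymal neuroblastoma genes and the 6 markers of blood, endothelium and epithelium had no peak in either list. Of all protein-coding genes, 5.53% had a WT peak and 7.12% a DNAJC12KO peak, so that few or no peaks in lists this small are near that background. A peak list gives no level of expression, so these counts do not check the identity of the cells.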

How the data were processed

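H4K5la was profiled in 1 immunoprecipitated library each of WT and DNAJC12KO SH-SY5Y cells, with 1 of input. Formaldehyde fixation (1%, 10 minutes) and fragmentation to 300 bp are given per the labels' protocols. Spike-in chromatin is named there; whether it set the scaling, and which aligner, filters and control were used, is not given in the sources used here. The genome build hg38 and the peak caller MACS2 (2.2.6) are named per the submitters' processing notes. The deposited files are 1 broad peak list per genotype, called per library. The authors' values per peak are a fold (a linear ratio over background), -log10 p, -log10 q and a score, which was not used. Each is an average over the peak. The lowest -log10 q is 1.03 (WT) and 1.01 (DNAJC12KO). The lists hold no counts, so depth is unknown. A deeper library can yield more peaks and so more overlaps.

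Overlaps (at least 1 bp), medians, shares and exact binomial (Clopper-Pearson) 95% intervals were computed with pandas 2.3.3, scipy 1.17.1 and numpy 2.4.6 under Python 3.11.15, and matplotlib 3.10.9 drew the plots. Intervals of medians come from order statistics. No test was made. The background was inferred by solving (k + 1)/(b + 1) = fold, where the Poisson tail of the pileup k over the background b gives p; for broad peaks this is approximate. On simulated lists, 150 of 150 planted pairs were found among 1937 peaks, each with its exact overlap. Genes and promoter windows came from RefSeq tables of GRCh38.p14 with 20037 protein-coding genes. The promoter table gives starts for 15843 of them, for 96 of the 118 with a pair and for none on chromosome 8. Its sequences were the same after reverse complement in 1848 of 1848 overlapping windows of opposite strands. Coordinates are 1-based.

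The members, the 17 gene lists and the rules were chosen with earlier results of these data known. Named are the 12 best-ranked pairs by the worse of both ranks by -log10 q, the 6 longest and 5 shortest overlaps, the 5 closest non-overlapping neighbours, genes with at least 2 pairs, the 20 best-ranked genes with a pair at an end, up to 5 members of each list, and the 8 best-ranked pairs outside genes. Alternatives were other minimum overlaps, thresholds, equal list lengths, other gene end windows and leaving out chromosomes 7 and 17. Some items that these rules name are not reported here.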

Additional observations from a re-analysis of the deposited data

Results flagged for a closer look

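The 4 overlapping pairs on unplaced sequences were flagged because they are a signal in data outside the comparisons above. Of 6 WT and 12 DNAJC12KO peaks there, 4 WT and 3 DNAJC12KO peaks overlapped, on 2 sequences. On one sequence the overlaps were 1503 bp (fold 3.94 WT, 3.70 DNAJC12KO) and 1212 bp (3.85 and 3.99). On the other they were 296 and 990 bp, with WT folds of 2.16 and 2.19 and the same DNAJC12KO peak (2.44).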

How the results depend on the processing

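No paired analysis was possible because each genotype has 1 library, so the groups share only the replicate number 1. Of 69 values under alternative settings, 32 stayed within the interval of the reported value, or for the number of genes within 1.5 times, and 37 did not. In each alternative for which width and fold were computed (all but the gene end windows), the median width of overlapping peaks was above, and their median fold below, that of the other peaks of their list. The WT fold interval excluded 0 only with a -log10 q of at least 2. The DNAJC12KO one did so with 50% of the narrower width, equal list lengths and without chromosomes 7 and 17, and spanned 0 in the rest. The width intervals spanned 0 with a -log10 q of at least 2. The WT fold difference was as small as -0.0099, with lists of equal length, and the report gives its sign on chromosomes 7 and 17 alone, where it was positive. With an overlap of at least 50% of both widths, 3.46% of WT and 2.44% of DNAJC12KO peaks overlapped, the DNAJC12KO width difference was 207 bp, the median extent 99.4% and the genes numbered 50. With 50% of the narrower width the shares were 5.94% and 4.23% and the extent 96.8%. With a -log10 q of at least 2 in both lists, the shares were 3.47% and 2.55%, from 7 peaks each. The fold differences were then -0.43 (WT) and -0.33 (DNAJC12KO), the width differences 958 and 712 bp, the shares at gene ends 0% and 0%, the share on chromosomes 7 and 17 42.9%, the extent 95.02% and the genes 3. With a fold of at least 4 in both lists, the shares were 2.01% and 2.32%, from 11 peaks each, the width differences 495 and 456.5 bp, the shares at gene ends 45.5% and 45.5%, the extent 100% and the genes 10. The last 2 settings leave few peaks, which the shares at gene ends (0% and 45.5%) reflect. With lists of equal length, 6.76% of WT peaks overlapped. Without chromosomes 7 and 17, the shares were 5.86% and 4.05%, the gene ends held 35.1% and 34.6% of overlapping peaks, and the genes numbered 61. A gene end window of 1 kb held 8.72% of overlapping WT and 10.4% of overlapping DNAJC12KO peaks, beside 9.63% and 8.21% of the others. At 10 kb it held 60.5% and 59.5%, beside 55.7% and 49.8% of the others. The DNAJC12KO intervals at 10 kb (51.82 to 66.9% and 47.9 to 51.80%) do not meet. For the remaining settings the gene end share of the other peaks was not computed. The cause of these changes was not tested. Depth is unknown, so a place without an overlap may be one where a library fell below the authors' threshold.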
